A study of Mus musculus with 6 samples.

Results

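The genes described here are the axon guidance ligands and receptors: the semaphorins of classes 3 to 7 and their plexin and neuropilin receptors, the ephrins and Eph receptors, the netrins and Unc5 receptors, and the Slits and Robo receptors. They were chosen by gene symbol, and 67 of the 19935 genes measured belonged to them, 35 ligand genes and 32 receptor genes. Their mRNA levels were compared between osteoblastic cells of Y1KO mice, which lack the neuropeptide Y receptor Y1 (2 arrays), and of wild-type mice (WT, 4 arrays). All mice were male, and the mice of both groups carried green fluorescent protein under a 3.6-kb piece of the rat alpha1(I)-collagen promoter, a promoter active in the osteoblast lineage. Marrow stromal cells of femora and tibias were cultured for 7 days in control medium, the fluorescent cells were sorted, and their total RNA was hybridised to single-channel Affymetrix arrays. The labels give neither the age of the mice, nor how and in which tissues Y1 was deleted, nor whether each array holds a separate mouse or culture. The p-values therefore cover only array-to-array spread, part of which may be technical.

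Guidance genes were named for their work in the nervous system, where growing axons read attractive and repulsive cues. Semaphorins are read by plexins, with neuropilins as co-receptors for most of the secreted class 3 semaphorins. Ephrins are bound to membranes and signal in both directions between the cell that carries the ephrin and the cell that carries the Eph receptor. Netrins are read by Unc5 receptors and by Dcc and neogenin, and Slits are read by Robo receptors. In bone the same families act between osteoblasts, osteoclasts, vessels and nerves: Sema3a is known to favour bone formation and to restrain osteoclasts, Sema4d from osteoclasts restrains osteoblasts through Plxnb1, and ephrin-B2 and EphB4 signal between both cell types.

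Levels are the deposited log2 values. Each difference is the Y1KO mean minus the WT mean of these log2 values, and its standard error (SE) comes from limma, a linear model with moderated variance. A gene is said to have risen or fallen in Y1KO where the limma p-value was under 0.05 after Benjamini-Hochberg adjustment across the 19935 genes. Array medians lay between 5.303 and 5.366. Over all genes the Y1KO pair correlated at 0.9961 and pairs of WT arrays at 0.9911 to 0.9958, while pairs of different genotype correlated at 0.9762 to 0.9875. Npy1r, the gene of the Y1 receptor, was dim in both groups (2.86 ± 0.04 in Y1KO, n = 2, and 2.94 ± 0.15 in WT, n = 4, SD), so its level checks the genotype labels neither way. The osteoblast label was checked on its markers: Col1a1, Ibsp, Alpl and Dmp1 were bright on all 6 arrays, at 11.75 or above on the Y1KO arrays and at 8.85 or above on the WT arrays. Sp7, the remaining marker measured, read 10.50 or above on the Y1KO arrays and 9.70 or above on the WT arrays.

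Of the 67 guidance genes, 8 rose, 6 fell and 53 did not pass the test. That is 20.9% called, where 12.7% of all genes were called, 6.1% higher and 6.64% lower in Y1KO. The share differed with brightness: of the 37 members at or above the median level of all genes 13 were called (35.1%, against 21.8% of all genes this bright), and of the 30 dimmer members 1 was called (3.33%, against 3.68%). The set was chosen with earlier results of these data known, so these shares are a description and no test of the set. The genes that rose were the secreted semaphorin genes Sema3b, Sema3d and Sema3a, the co-receptor gene Nrp2, the A-class ephrin genes Efna3 and Efna1, the receptor gene Epha2 and the netrin receptor gene Unc5b. The genes that fell were the plexin genes Plxna2 and Plxnd1, the co-receptor gene Nrp1, the ephrin genes Efna5 and Efnb1, and the receptor gene Ephb4. The median difference over the 67 genes was 0.05, beside 0.01 over all genes. Groups that did not overlap, with both Y1KO arrays beyond all WT arrays, were found for 20 members higher and 15 lower in Y1KO, where 34.8% of all genes had such groups, 17.5% higher and 17.3% lower. An array of sorted cells cannot tell fewer cells of a kind from less RNA per cell.

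**Figure D1:**
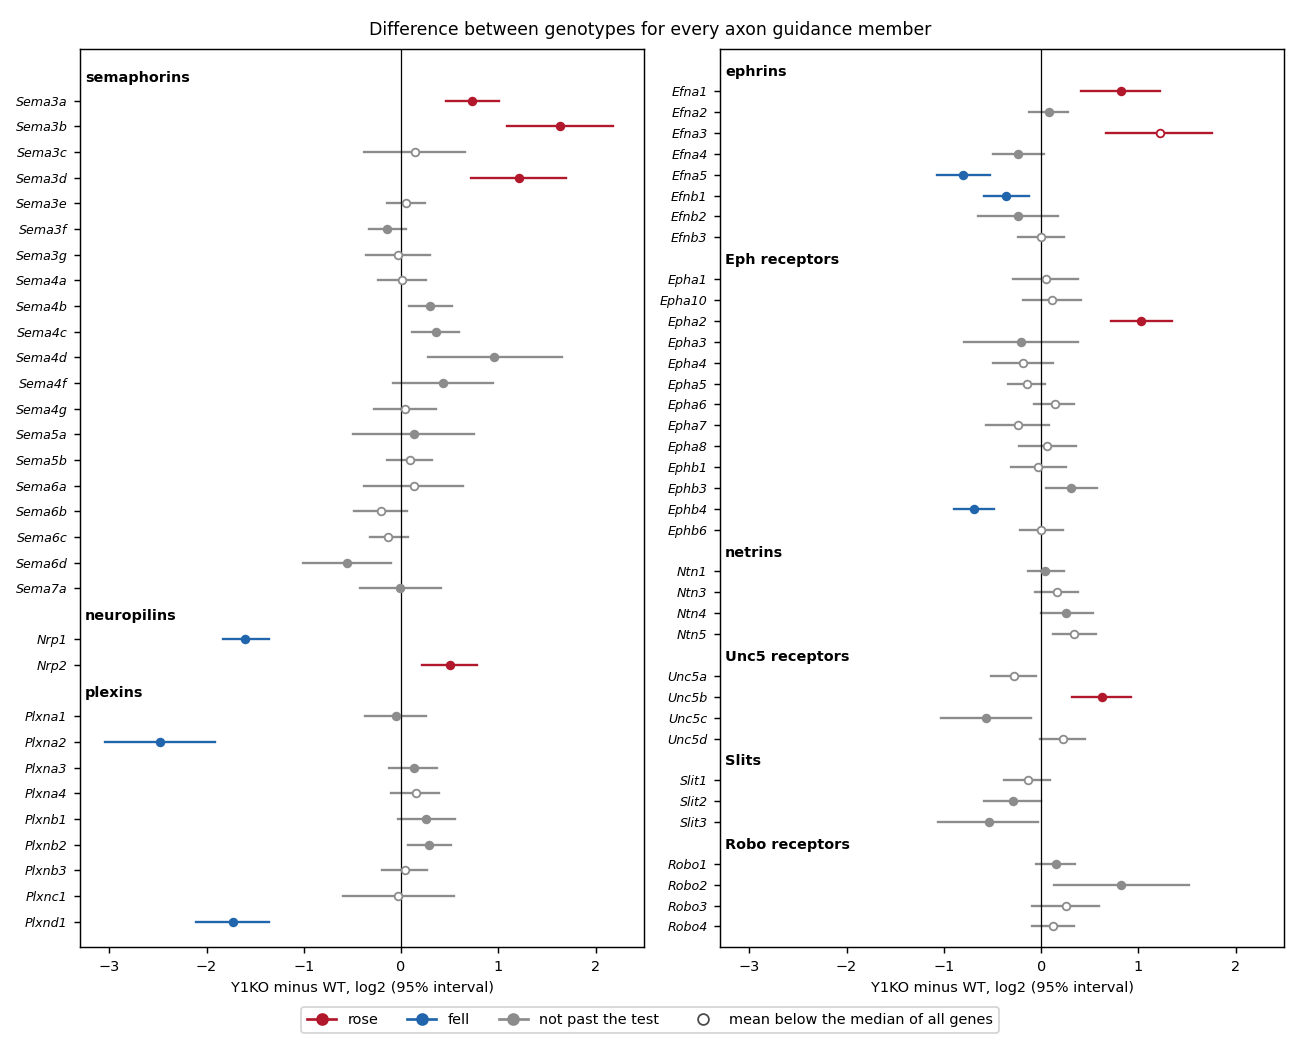
Difference in log2 level, Y1KO minus WT, with its 95% interval from limma, for each of the 67 guidance genes, by family. Red genes rose, blue genes fell, grey genes did not pass the test, and open symbols mark genes whose mean lay below the median of all genes. The largest decrease is Plxna2 at -2.48 and the largest increase is Sema3b at 1.63.

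Among the semaphorins, 3 of the 7 class 3 genes rose and 0 fell, and 0 of the 13 genes of classes 4 to 7 passed the limma test. At an unadjusted limma p under 0.05 there were 4 of these 13, where 24.3% of all genes had such a p. Class 3 semaphorins are secreted, and those of the other classes measured are mostly bound to membranes. Sema3b read 8.65 and 8.87 on the Y1KO arrays, against 6.99, 6.59, 7.60 and 7.32 on the WT arrays. Both Y1KO arrays stood above all WT arrays by more than the WT arrays differed among themselves. The difference was 1.63 (SE 0.24, limma adjusted p = 0.00353), a 3.1-fold increase and the 38th largest increase of all genes. Sema3d read 8.57 and 8.71 in Y1KO, against 7.80, 7.00, 7.71 and 7.23 in WT, and rose 2.31-fold (difference 1.21, SE 0.21, limma adjusted p = 0.0076). Sema3a, the member of this class best known in bone, read 7.53 and 7.42 in Y1KO, against 6.78, 6.92, 6.78 and 6.51 in WT. Its 1.66-fold increase was the smallest of the 3 (difference 0.73, SE 0.12, limma adjusted p = 0.0057), and its groups did not overlap either.

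The other class 3 genes showed smaller differences. Sema3f, with 5.87 on both Y1KO arrays and 5.97 to 6.07 in WT, differed by -0.14 (95% interval -0.33 to 0.05, limma adjusted p = 0.363). Sema3c, Sema3e and Sema3g lay below the median of all genes and differed by 0.14, 0.05 and -0.03, the last being 0.03 with median-centred arrays. Sema3e is the ligand that binds Plxnd1 without a neuropilin, and it stayed between 3.85 and 4.04 on all 6 arrays.

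Of the semaphorins of classes 4 to 7, Sema4d had the largest difference, 0.96, and it missed the test (SE 0.30, limma adjusted p = 0.0769). Sema4d read 6.80 and 7.19 in Y1KO, against 5.78, 5.41, 6.66 and 6.28 in WT, so the groups did not overlap but the WT arrays were spread widely. The gene had a 2nd, dimmer probe set, which differed by 0.16 (limma adjusted p = 0.432). Sema4d passed the test in the fit without WT replicate 3, at 1.17 (limma adjusted p = 0.0225). Sema4b read 7.94 and 7.87 in Y1KO, against 7.70, 7.47, 7.66 and 7.57 in WT (difference 0.30, limma adjusted p = 0.0797). Sema4c read 7.63 and 7.86 in Y1KO, against 7.50, 7.27, 7.33 and 7.45 in WT (difference 0.36, limma adjusted p = 0.0687). For both genes every Y1KO array lay above every WT array, and both passed the test with median-centred arrays, at 0.36 and 0.42. Sema7a, a lipid-anchored semaphorin that signals through Plxnc1 and integrins, was bright and overlapped between groups, with 9.38 and 9.72 in Y1KO and 9.41, 9.23, 9.90 and 9.67 in WT. Its difference was -0.01, with a 95% interval of -0.42 to 0.41, and was 0.05 with median-centred arrays. Sema5a likewise overlapped, with 7.34 and 7.70 in Y1KO and 7.33, 6.87, 8.05 and 7.32 in WT (difference 0.13). Sema6d and Sema4f differed by -0.56 (limma adjusted p = 0.12) and 0.43 (limma adjusted p = 0.298), and only Sema6d of these had groups that did not overlap, with 6.15 and 6.43 in Y1KO and 6.54 to 7.33 in WT.

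Both neuropilin genes passed the test, in opposite directions. Nrp1, a co-receptor for Sema3a and for vascular endothelial growth factor, read 7.43 and 7.51 on the Y1KO arrays, against 8.89, 9.16, 9.14 and 9.06 on the WT arrays. The arrays of each group were close together and far from the other group. Nrp1 averaged 7.47 ± 0.06 (SD, n = 2) in Y1KO and 9.06 ± 0.12 (SD, n = 4) in WT, a 3.02-fold decrease (difference -1.60, SE 0.10, limma adjusted p = 0.000171), the smallest p of all members. Nrp2, preferred by Sema3f and also bound by Sema3b, read 11.41 and 11.43 in Y1KO, against 11.12, 10.66, 10.97 and 10.96 in WT. Its increase was 1.41-fold (difference 0.50, SE 0.13, limma adjusted p = 0.0359), and it was not past the test with quantile normalization (limma adjusted p = 0.0676) or without WT replicate 3, WT replicate 4 or either Y1KO array.

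Of 9 plexin genes, 2 fell and 0 rose. Plxna2, a class A plexin that works with neuropilins and also binds class 6 semaphorins directly, read 5.74 and 5.15 in Y1KO, against 7.79, 7.44, 8.14 and 8.32 in WT. The lowest WT array stood well above both Y1KO arrays, which themselves differed by more than those of any other called member. Plxna2 averaged 5.45 ± 0.42 (SD, n = 2) in Y1KO and 7.92 ± 0.39 (SD, n = 4) in WT, a 5.57-fold decrease (difference -2.48, SE 0.25, limma adjusted p = 0.000877) and the largest difference of the 67 genes. In Y1KO it lay at percentile 47.6 of all genes, and in WT at percentile 81.1. Plxnd1, the receptor of Sema3e, read 6.59 and 6.78 in Y1KO, against 8.18, 8.51, 8.76 and 8.21 in WT, and fell 3.32-fold (difference -1.73, SE 0.17, limma adjusted p = 0.000743).

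The remaining 7 plexins did not pass the test. Plxna1, a class A plexin like Plxna2, read 8.56 and 8.62 in Y1KO and 8.69, 8.94, 8.45 and 8.49 in WT, a difference of -0.05 with a 95% interval of -0.37 to 0.26, and of 0.01 with median-centred arrays. Plxna3 differed by 0.13 (limma adjusted p = 0.564). Plxnb1, the receptor of Sema4d, read 7.88 and 7.84 in Y1KO, against 7.61, 7.32, 7.74 and 7.72 in WT (difference 0.26, limma adjusted p = 0.266). Plxnb2, which binds class 4 semaphorins, read 10.27 and 10.24 in Y1KO, against 10.03, 10.07, 9.92 and 9.84 in WT (difference 0.29, limma adjusted p = 0.0892). For both B-class genes the Y1KO arrays lay above all WT arrays without the difference passing the test. Plxnb2 passed it when genes below the 60th percentile were left out (0.29, limma adjusted p = 0.043).

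**Figure D2:**
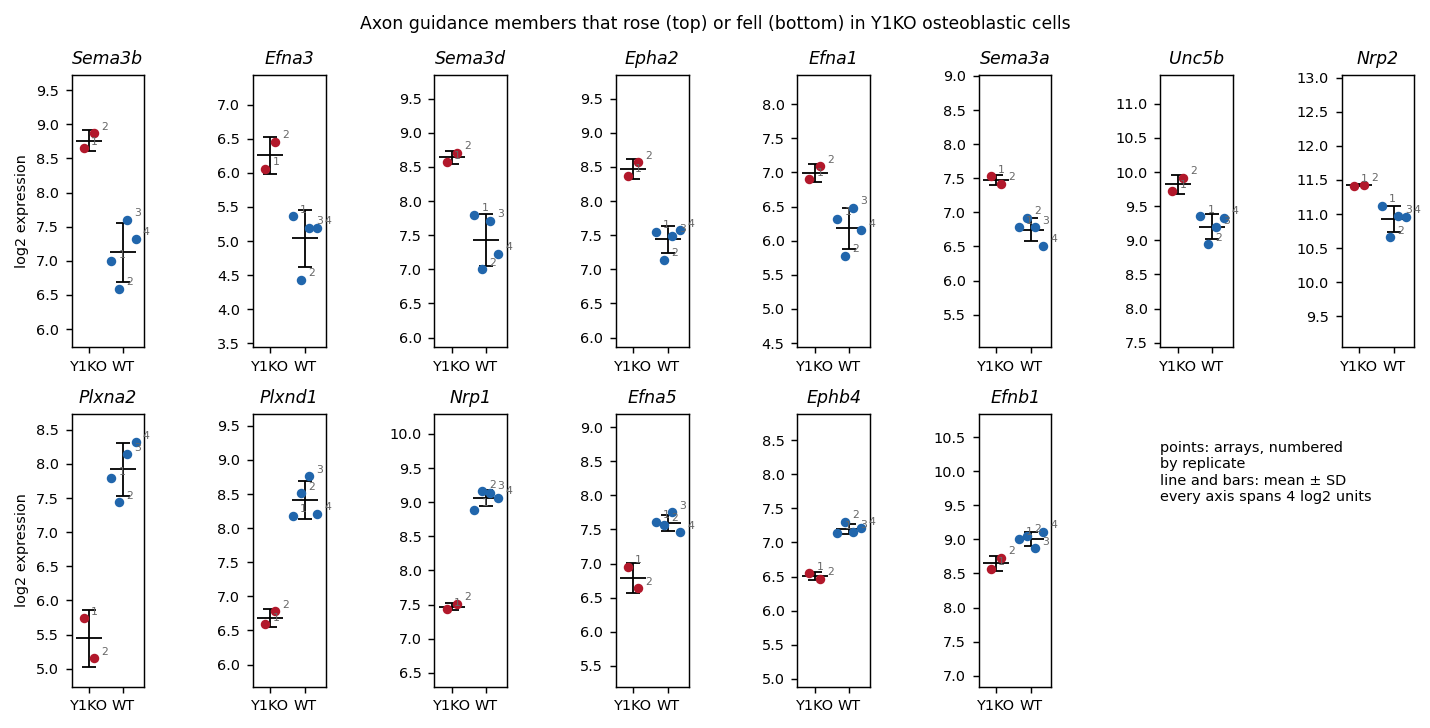
Log2 expression on each array for the 8 members that rose (top row) and the 6 that fell (bottom row), Y1KO on the left of each panel and WT on the right. Points are arrays with their replicate number, lines and bars are the mean ± SD (n = 2 and n = 4), and every axis spans 4 log2 units. WT replicate 2 is the lowest WT array for 7 of the 8 members that rose.

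The start of the 3 receptor genes that fell most is shown as a description. Each line gives the 250 bases before the RefSeq start, 5′ to 3′ on the gene's strand, in build GRCm38.p6, with the searched motifs in capitals.
Plxna2, chr1:194619579-194619828, strand +: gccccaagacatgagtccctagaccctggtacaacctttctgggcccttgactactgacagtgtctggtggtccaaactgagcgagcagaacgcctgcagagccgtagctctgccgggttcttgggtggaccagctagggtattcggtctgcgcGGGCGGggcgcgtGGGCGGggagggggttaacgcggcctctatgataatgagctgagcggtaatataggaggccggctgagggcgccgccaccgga
Plxnd1, chr6:115995006-115995255, strand -: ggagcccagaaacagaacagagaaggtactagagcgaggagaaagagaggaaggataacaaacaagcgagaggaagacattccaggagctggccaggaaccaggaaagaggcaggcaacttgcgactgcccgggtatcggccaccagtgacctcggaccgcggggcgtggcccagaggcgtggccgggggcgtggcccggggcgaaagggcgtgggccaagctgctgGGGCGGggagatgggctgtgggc
Nrp1, chr8:128358823-128359072, strand +: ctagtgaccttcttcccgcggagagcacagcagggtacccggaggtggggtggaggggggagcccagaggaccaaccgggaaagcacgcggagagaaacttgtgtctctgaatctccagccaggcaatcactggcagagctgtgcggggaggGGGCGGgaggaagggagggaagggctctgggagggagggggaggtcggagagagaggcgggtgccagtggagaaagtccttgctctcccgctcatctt
All 3 windows held the GC box (GGGCGG, or CCGCCC where it lies on the other strand), the letters bound by Sp1-type factors, which 32.7% of 32851 such windows of all genes held. The GC box was common among the guidance genes in both directions: 44 of the 58 members with a window held it, 5 of 7 that rose and 5 of 6 that fell. A member was counted where any of its windows held the motif, whereas the shares of all windows are per window. The GC content of the 3 windows was 62.8%, 64.8% and 64.4%, beside a median of 52.4% over all windows. None of the 3 held the cyclic AMP response half-site (TGACG), the AP-1 element (TGANTCA), the E-box (CACGTG), the RUNX core (TGTGGT) or the TATA box (TATAAA), which 17.8%, 6.75%, 6.02%, 14% and 12.4% of all windows held. A match is a run of letters and was not tested as a site.

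In the ephrin and Eph family, Efna1, Efna3 and Epha2 rose while Efna5, Efnb1 and Ephb4 fell. Of 8 ephrin genes 2 rose and 2 fell, and of 13 Eph receptor genes 1 rose and 1 fell. Efna3 read 6.06 and 6.45 on the Y1KO arrays, against 5.36, 4.43, 5.19 and 5.19 on the WT arrays. It averaged 6.26 ± 0.27 (SD, n = 2) in Y1KO and 5.04 ± 0.42 (SD, n = 4) in WT, a 2.32-fold increase (difference 1.22, SE 0.24, limma adjusted p = 0.0121). In WT the gene lay below the median of all genes, and WT replicate 2 was low. Efna1, a lipid-anchored ligand that binds EphA2, read 6.90 and 7.09 in Y1KO, against 6.32, 5.78, 6.48 and 6.15 in WT, and rose 1.76-fold (difference 0.82, SE 0.18, limma adjusted p = 0.0185). Efna5 moved the other way: it read 6.95 and 6.64 in Y1KO, against 7.61, 7.57, 7.75 and 7.46 in WT, and fell 1.74-fold (difference -0.80, SE 0.12, limma adjusted p = 0.00371). Efna4 and Efna2 differed by -0.24 (limma adjusted p = 0.263) and 0.08 (limma adjusted p = 0.7).

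Efnb1, a transmembrane ephrin needed for normal skeletal patterning, had the smallest difference of the called members. It read 8.57 and 8.73 in Y1KO, against 9.01, 9.05, 8.87 and 9.11 in WT (difference -0.36, SE 0.10, limma adjusted p = 0.0474). The groups did not overlap, but Efnb1 was not past the test in 8 of 15 alternatives, among them median-centred arrays (-0.30, limma adjusted p = 0.0728) and the fits without WT replicate 1, WT replicate 2, WT replicate 4 or either Y1KO array. Efnb2, the ephrin of the osteoclast to osteoblast signal, overlapped between groups, with 6.56 and 6.20 in Y1KO and 6.63, 6.98, 6.31 and 6.55 in WT (difference -0.24, 95% interval -0.65 to 0.17).

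Epha2, a receptor for A-class ephrins, read 8.37 and 8.57 in Y1KO, against 7.55, 7.14, 7.49 and 7.57 in WT. It averaged 8.47 ± 0.14 (SD, n = 2) in Y1KO and 7.44 ± 0.20 (SD, n = 4) in WT, a 2.04-fold increase (difference 1.03, SE 0.14, limma adjusted p = 0.00235), and kept its call when any 1 array was left out. Ephb4, the receptor of ephrin-B2, read 6.55 and 6.47 in Y1KO, against 7.14, 7.30, 7.16 and 7.21 in WT. All 6 arrays lay close to their group mean, and the 1.62-fold decrease (difference -0.69, SE 0.09, limma adjusted p = 0.00224) held in all 15 alternatives. Ephb3 and Epha3 differed by 0.31 (limma adjusted p = 0.134) and -0.21 (limma adjusted p = 0.712). Epha3 read 7.19 and 7.14 in Y1KO and 7.56, 7.64, 6.66 and 7.64 in WT, and without WT replicate 3 its difference was -0.45 (limma adjusted p = 0.0162).

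The start of Epha2 is shown because it was the 1 window among all 58 members with a RefSeq window to hold the full cyclic AMP response element (TGACGTCA, which is its own reverse complement), which 1.55% of all windows held. A count of 1 in 58 is near that share. This element was searched because the Y1 receptor is known to lower cyclic AMP in cells. Sema3d is given beside it as the other risen member found with a half-site. Efnb1, which fell, also held a half-site, 26 bases before the start.
Epha2, chr4:141300971-141301220, strand +: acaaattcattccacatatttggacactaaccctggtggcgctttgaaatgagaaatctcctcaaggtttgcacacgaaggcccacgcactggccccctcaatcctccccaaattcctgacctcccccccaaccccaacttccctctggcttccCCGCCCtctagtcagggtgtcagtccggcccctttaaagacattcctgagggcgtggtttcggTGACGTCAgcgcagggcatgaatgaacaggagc
Sema3d, chr5:12382916-12383165, strand +: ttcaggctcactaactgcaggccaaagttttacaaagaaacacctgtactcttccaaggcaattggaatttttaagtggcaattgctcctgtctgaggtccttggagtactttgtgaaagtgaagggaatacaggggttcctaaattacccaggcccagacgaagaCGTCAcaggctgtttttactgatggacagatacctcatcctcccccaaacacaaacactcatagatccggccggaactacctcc
In Epha2 the element begins 33 bases before the start and a GC box lies further upstream. In Sema3d the capitals mark a half-site read on the other strand (CGTCA), 84 bases before the start. Sema3b was not among the members with a window. Of those, 7 of 58 held the half-site: 2 of 7 that rose, 1 of 6 that fell and 4 of those not past the test. The share of the 58 lay below the 17.8% of all windows that held it.

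Among the netrin genes 0 of 4 passed the limma test (1 at an unadjusted p under 0.05), and among the Unc5 receptor genes 1 of 4 rose. Unc5b, a repulsive netrin receptor also found on vessels, read 9.72 and 9.92 in Y1KO, against 9.35, 8.94, 9.19 and 9.33 in WT. It averaged 9.82 ± 0.14 (SD, n = 2) in Y1KO and 9.20 ± 0.19 (SD, n = 4) in WT, a 1.54-fold increase (difference 0.62, SE 0.13, limma adjusted p = 0.0166). Unc5c read 7.24 and 7.42 in Y1KO, against 7.93, 8.36, 7.48 and 7.83 in WT. Its difference of -0.57 was not past the test (SE 0.20, limma adjusted p = 0.119), though its groups did not overlap, and it was past it without WT replicate 3 (-0.71, limma adjusted p = 0.0322). Unc5a and Unc5d lay below the median of all genes and differed by -0.28 and 0.22. Ntn1, the netrin that acts through Unc5b, read 5.72 and 5.78 in Y1KO and 5.74, 5.69, 5.67 and 5.72 in WT (difference 0.04, 95% interval -0.14 to 0.23). Ntn4 and Ntn3 differed by 0.26 (limma adjusted p = 0.213) and 0.16 (limma adjusted p = 0.378). Ntn5, a dim gene, read 4.84 and 4.74 in Y1KO, against 4.54, 4.53, 4.36 and 4.38 in WT (difference 0.34, limma adjusted p = 0.0541).

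None of the 3 Slit genes or the 4 Robo genes passed the limma test, and at an unadjusted p under 0.05 there were 2 of the 7, Slit3 and Robo2 (28.6%, against 24.3% of all genes). Slit3, which osteoblast-lineage and other bone cells secrete and which acts on vessels, read 7.73 and 8.16 in Y1KO, against 8.15, 8.28, 8.99 and 8.53 in WT. The higher Y1KO array overlapped the lowest WT array (difference -0.54, SE 0.22, limma adjusted p = 0.176). Slit2 read 8.02 and 8.03 in Y1KO, against 8.05, 8.41, 8.53 and 8.28 in WT (difference -0.29, limma adjusted p = 0.214). Robo2 read 7.81 and 8.07 in Y1KO, against 6.88, 6.43, 7.69 and 7.46 in WT. Its difference of 0.82 was as large as that of Efna1, but the WT arrays spread over more than 1 log2 unit (SE 0.30, limma adjusted p = 0.129), and it was past the test without WT replicate 3 (1.02, limma adjusted p = 0.0495). Robo1 read 7.43 and 7.44 in Y1KO, against 7.30, 7.17, 7.35 and 7.31 in WT (difference 0.15, limma adjusted p = 0.353).

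Among the 30 dimmer members, those below the all-gene median, the genotypes did not overlap for 9 (30%, against 18.9% of all genes this dim). Apart from Efna3, which rose, they were Ntn5, Ntn3, Unc5d and Epha6, higher in Y1KO, and Unc5a, Slit1, Sema6c and Epha5, lower in Y1KO. Slit1, Sema6c, Epha5 and Epha6 differed by -0.14, -0.13, -0.15 and 0.14, and the overlapping Epha4 and Ephb1 by -0.19 and -0.03, the last being 0.03 with median-centred arrays. The other 16 dim members were Epha1, Epha7, Epha8, Epha10, Ephb6, Efnb3, Plxna4, Plxnb3, Plxnc1, Robo3, Robo4, Sema4a, Sema4g, Sema5b, Sema6a and Sema6b. Their differences ran from -0.24 to 0.25, 12 above 0 and 4 below, and their groups all overlapped. The 2 probe sets of Sema6b held the same values and were counted once.

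Set side by side, known partners were called in the same direction in some cases and not in others. Sema3a rose while its co-receptor Nrp1 and the class A plexin Plxna2 fell. The class A plexins Plxna1, Plxna3 and Plxna4 did not pass the test (differences -0.05, 0.13 and 0.15). Sema3b and Nrp2 both rose, though Nrp2 kept its call in only 8 of 15 alternatives and the other neuropilin gene, Nrp1, fell. Plxnd1 fell with its ligand Sema3e dim on every array. Efna1 and its receptor Epha2 rose, while Efna5, another A-class ephrin gene, fell (difference -0.80). Ephb4 fell with Efnb2 not past the test, and Unc5b rose with Ntn1 not past the test. Whether a partner moved more than its ligand was not tested, since levels of different probe sets are not on a common scale.

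The pathway downstream was read from 71 measured genes of a list of 77 other guidance genes and effectors, of which 10 rose, 9 fell and 52 did not pass the test (26.8% called, against 12.7% of all genes). Of the 49 at or above the median of all genes 32.7% were called, against 21.8% of all genes this bright, and of the 22 dimmer ones 13.6%, against 3.68%. The list was chosen with earlier results of these data known, so these shares are a description and no test of the pathway. Of the 15 other ligands, receptors and co-receptors, Nrcam rose and Neo1 and Flrt2 fell. Neo1, which encodes neogenin, a receptor for netrins and repulsive guidance molecules, read 9.01 and 9.0 in Y1KO, against 9.75, 9.88, 9.85 and 9.78 in WT (difference -0.81, SE 0.09, limma adjusted p = 0.00102). Flrt2, a ligand of Unc5 receptors, read 5.16 and 5.39 in Y1KO, against 6.52, 6.78, 6.54 and 6.19 in WT (difference -1.24, SE 0.15, limma adjusted p = 0.00203). Nrcam, an adhesion protein that pairs with neuropilins, rose by 0.59.

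Among 56 effectors 9 rose and 7 fell. Fyn, a Src-family kinase that acts downstream of plexins and Ephs, read 9.46 and 9.80 in Y1KO, against 8.37, 8.17, 8.56 and 8.55 in WT, and rose 2.33-fold (difference 1.22, SE 0.14, limma adjusted p = 0.00152). The exchange factor genes Vav2, Ngef and Farp2, which act downstream of Eph receptors or plexins, rose by 0.89, 0.85 and 0.82. Vav2 read 7.73 and 7.85 in Y1KO, against 7.10, 6.56, 6.88 and 7.04 in WT. Ngef read 6.77 and 6.77 in Y1KO, against 6.05, 5.76, 5.81 and 6.07 in WT. For both, each Y1KO array lay above every WT array. Srgap1 and Srgap3, which encode GTPase-activating proteins of the Slit and Robo pathway, rose by 0.84 and 0.68. Srgap2, of the same group and brighter, did not pass the test (difference 0.07, limma adjusted p = 0.772). Srgap1 read 7.57 and 7.71 in Y1KO, against 6.84, 6.43, 7.01 and 6.89 in WT. Mical3, Chn2 and Limk1, a semaphorin-linked oxidase, a Rac regulator and a cofilin kinase, rose by 0.76, 0.70 and 0.50. Rras, the GTPase on which plexins act, read 8.19 and 8.27 in Y1KO, against 9.55, 9.72, 9.43 and 9.31 in WT, and fell 2.42-fold (difference -1.27, SE 0.12, limma adjusted p = 0.000716). The adaptor gene Nck2, the exchange factor gene Farp1, the actin regulator genes Enah and Vasp, the collapsin response mediator gene Dpysl3 and the actin-binding gene Ablim1 fell by 0.87, 0.69, 0.62, 0.45, 0.58 and 0.45. Nck2 read 5.67 and 5.87 in Y1KO, against 6.60, 6.91, 6.52 and 6.53 in WT. The counts were lower when 1 Y1KO array was left out, a fit that leaves 1 array in that group and so has less precision.

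**Figure D3:**
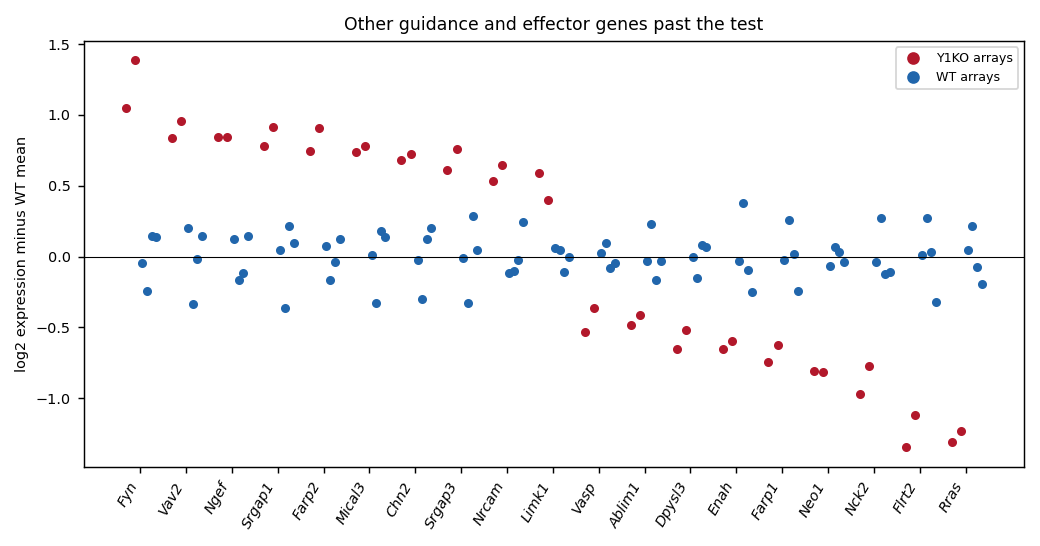
Log2 expression minus the WT mean on each array for the 19 other guidance and effector genes that passed the test, Y1KO arrays in red on the left of each gene and WT arrays in blue on the right. Fyn stands highest among those that rose (1.22) and Rras lowest among those that fell (-1.27).

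Markers of several cell types also differed between the arrays. Of the 8 osteoblast markers listed, 5 were measured. Relative to the WT mean, their mean was 0.60 and 0.59 on the Y1KO arrays and 0.06, -0.50, 0.26 and 0.18 on WT replicates 1 to 4. Although 0 of 5 passed the test, all 5 had both Y1KO arrays above all WT arrays, as 17.5% of all genes did. Dmp1 differed most, by 1.66, where the median over the 5 was 0.43. On WT replicate 2 Dmp1 read 8.85, against a WT mean of 10.21. The mean of the 8 guidance genes that rose was 0.89 and 1.05 in Y1KO and 0.15, -0.33, 0.16 and 0.02 in WT. WT replicate 2 was thus the lowest array for these genes and for the osteoblast markers. WT replicate 2 held the lowest WT value of 7 of the 8 risen members (all but Sema3a) and of 56% of all genes that rose. Without WT replicate 2, 8 members rose and 5 fell. The part of osteoblast maturity in these results was not tested.

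Of 8 macrophage markers 5 rose, and their mean was 0.27 and 0.68 in Y1KO and -0.14 to 0.07 in WT. Of 8 smooth muscle and pericyte markers 6 fell and 1 rose, with a mean of -0.88 and -1.01 in Y1KO and -0.14 to 0.15 in WT. All 5 proliferation markers fell, with a mean of -0.84 and -1.04 in Y1KO and -0.11 to 0.19 in WT. The mean of the 6 fallen guidance genes was -1.23 and -1.32 in Y1KO and -0.10 to 0.10 in WT. The part of macrophages, contractile cells and proliferation in these results was not tested. Plxnd1, Nrp1, Ephb4 and Unc5b are also known from endothelium: of 8 endothelial markers 0 rose and 0 fell, their mean was -0.02 and -0.01 in Y1KO and -0.08 to 0.09 in WT, and the 8 markers lay between 3.16 (Emcn) and 6.06 (Egfl7) over all arrays. The part of endothelial cells in these results was not tested. Of 6 neural and Schwann markers Tubb3 and Stmn2 rose, by 1.53 and 1.47, while the other 4, Snap25 and Sox10 among them, did not pass the test and lay between 4.07 and 5.34. Of 5 lymphocyte markers Cd4 rose, by 0.37, and the other 4 did not pass the test. Cd4 was dim, between 3.45 and 4.00 on all arrays, at percentile 19.0 of all genes. The mean of the 5 was 0.13 and 0.17 in Y1KO and -0.13 to 0.06 in WT.

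**Figure D4:**
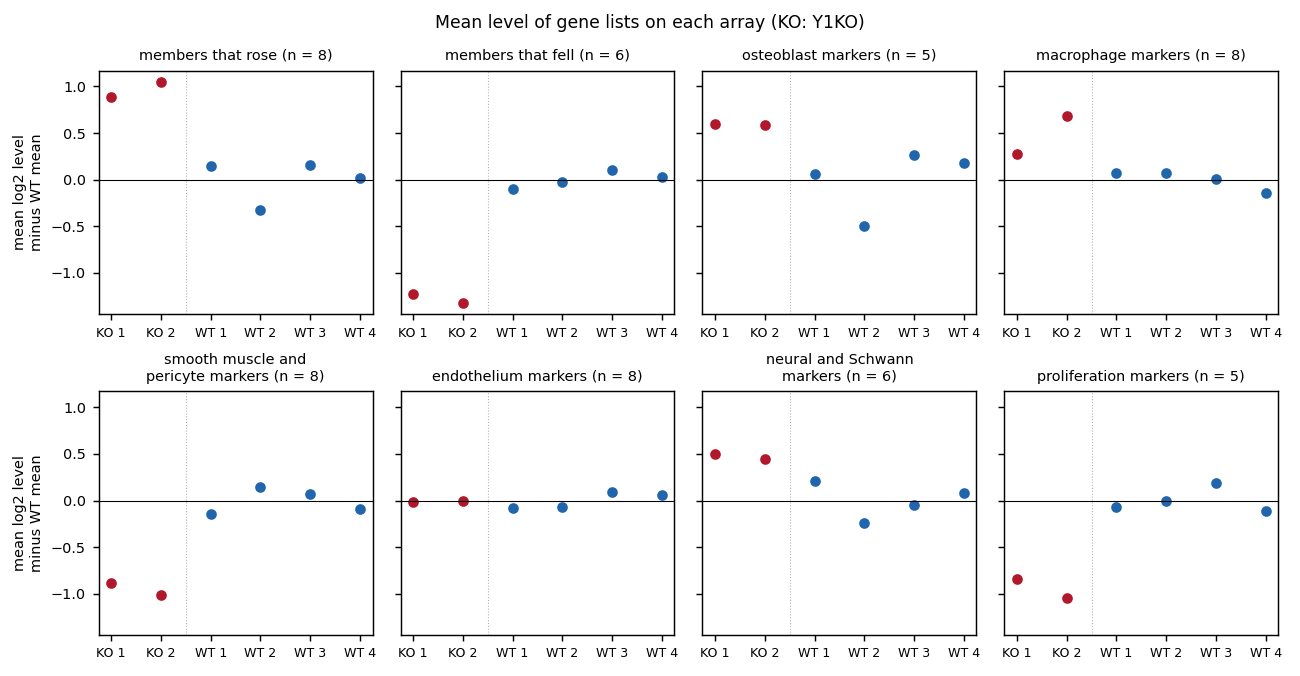
Mean log2 level of each gene list on each array, minus the mean of the WT arrays, with the Y1KO arrays (KO 1 and KO 2) left of the WT arrays. The guidance genes that rose and fell are drawn as a description, since their values chose them, beside 6 marker lists. WT 2 is lowest for the risen members (-0.33) and for osteoblast markers (-0.50).

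How well the calls held under the alternatives differed between the members. Nrp1 and Ephb4 passed the test in all 15 alternatives run, and Plxna2, Plxnd1 and Epha2 in all but the test without moderation of the variance. Fewer of the 8 increases passed the test when 1 Y1KO array was left out. Such a fit leaves 1 array in that group and so has a larger SE. The 8 differences then ran from 0.50 (Nrp2) to 1.74 (Sema3b) without Y1KO replicate 1. They ran from 0.49 (Nrp2) to 1.53 (Sema3b) without Y1KO replicate 2. Without moderation 0 of the 8 increases and 2 of the 6 decreases passed. In 0 of these alternatives did a called member change its sign.

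**Figure D5:**
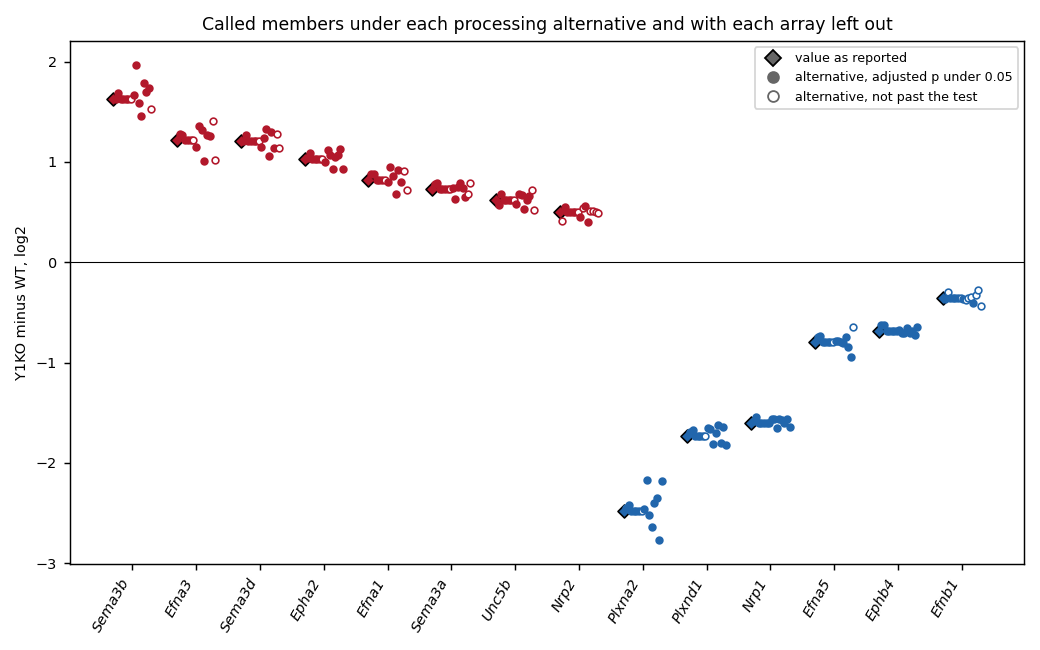
Difference in log2 level, Y1KO minus WT, of the 14 called members as reported (diamonds) and under each alternative or with 1 array left out (circles), filled where the adjusted p was under 0.05. All circles of a gene lie on the same side of 0, and Nrp1 and Ephb4 have filled circles throughout.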

How the data were processed

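Each sample was 1 single-channel Affymetrix array of RNA from sorted fluorescent cells. The deposited values are log2 expression values made with RMA, per the submitters' processing notes, which also name limma. Depth has no meaning here: the number of arrays limits the precision. Of 28815 probe sets, 21780 had 1 gene symbol in the platform annotation, 1605 had several and 5430 were not listed. The brightest probe set by mean stood for each of 19935 genes. All 67 members matched RefSeq by gene identifier, and 1 further gene of the same name pattern was not analysed here.

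Genotype was the only term in limma 3.58.1 (R 4.3.3, lmFit and eBayes, two-sided), with Benjamini-Hochberg adjustment across genes and a threshold of 0.05. The members and lists were chosen with earlier results of these data known. Members past the test, and those in the upper quartile of all genes in either genotype, are given on every array. From the other guidance and effector list every gene past the test is named, with array values for the 4 of largest difference in each direction. From each marker list up to 4 genes are named, and for osteoblasts all 5 measured. The fit was tested on simulated data. Alternatives were quantile normalization, median-centred arrays, filters on dim genes, the mean of probe sets, a trended robust prior, no moderation, array weights, a replicate block and leaving out each array. Promoter windows are RefSeq sequence of GRCm38.p6, found for 58 members and searched on both strands. Overlapping matches were counted for each motif, so the full cyclic AMP response element also holds the half-site on both strands.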

Additional observations from a re-analysis of the deposited data

Results flagged for a closer look

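For 4 of the 67 guidance genes 1 WT array stood apart from the other 3, its gap to the nearest exceeding Dixon's 95% critical value. Chance alone flags about 1 in 20 groups. Epha3 read 6.66 on WT replicate 3, against 7.56 to 7.64 on the other WT arrays. Epha4 read 5.06 on WT replicate 2, against 4.63 to 4.70. Ephb1 read 4.36 on WT replicate 4, against 4.22 to 4.23, and Sema6c read 5.51 on WT replicate 4, against 5.38 to 5.39. None of these 4 genes passed the limma test with all arrays, and Epha3 passed it without WT replicate 3 (-0.45, limma adjusted p = 0.0162).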

How the results depend on the processing

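The 14 called members kept their direction in every alternative run. Without moderation, 0 members rose and 2 fell, and 0 of the other guidance and effector genes rose and 2 fell. With 1 array left out, 1 to 9 members rose and 4 to 8 fell, and 3 to 10 of the other genes rose and 3 to 9 fell. The lowest counts of increases came without Y1KO replicate 2 (1 member, 3 other genes) and without Y1KO replicate 1 (2 members, 4 other genes), where the lone Y1KO array is assumed to vary like the WT arrays. Under the other alternatives 7 to 11 members rose and 5 to 7 fell, and the median difference of the members was 0.00 to 0.11 over all alternatives. In the labels, same-numbered arrays of the 2 genotypes share only a number. Their deviations from the group means correlated at 0.0127 for number 1 and -0.204 for number 2. The deviations of the 2 Y1KO arrays mirror each other, so these values cannot decide whether same-numbered arrays belong together. Only numbers 1 and 2 occur in both genotypes, so the replicate block takes the difference from those arrays and makes no use of WT replicates 3 and 4 for it. With the replicate block 9 members rose and 6 fell, 9 of the other genes rose and 10 fell, and the median difference was 0.08. Efnb1 and Nrp2 were then not past the test, and Robo2 (1.28), Unc5c (-0.81) and Sema4d (1.40) were. The sign turned only for members that did not pass the test, and the cause was not tested. Ephb1 was 0.03 with median-centred arrays, 0.11 as the mean of probe sets, 0.00 with the replicate block and 0.24 on its other probe set, and -0.24 to 0.19 with 1 array left out. Plxna1 was 0.01 with median-centred arrays and -0.12 to 0.05 with 1 array left out. Sema3g was 0.03 with median-centred arrays, 0.10 with the replicate block and -0.12 to 0.07 with 1 array left out. Sema7a was 0.05 with median-centred arrays, 0.04 with array weights, 0.23 with the replicate block and -0.17 to 0.16 with 1 array left out. Sema5a was -0.05 to 0.35 with 1 array left out. Of the 16 members given by range, 11 changed sign under at least 1 alternative and 0 passed the test under any.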
